A study of Mus musculus with 16 samples.

Results

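The kappa light chain variable segments are the rows of a mouse liver count table whose gene symbol begins with Igkv, 103 of its 40324 distinct symbols. They were counted in the livers of 16 littermate db/db mice, a strain that lacks a working leptin receptor and becomes obese and diabetic. In 8 of the mice, labelled as arcA overexpression, an adeno-associated virus of serotype 8 (AAV8) carried arcA, and in the 8 control mice the same type of virus carried GFP, so that both groups had received a vector. No liver without a vector was among the 16. Lower in arcA livers therefore means relative to GFP livers, and a fall with arcA and a rise with GFP cannot be told apart. Injection was at about 5 weeks of age and the liver was taken 5 weeks later, at 10 weeks. What arcA encodes, which promoter drove it and which sex the mice were is not stated in the labels, and transgene expression was not analysed here. The RNA came from pieces of whole liver, in which fewer cells of the B lineage and less kappa RNA per cell cannot be told apart. Nothing in the labels says which mice shared a litter or a cage, and the p-values measure the spread between these 16 livers.

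A kappa light chain is made when a developing B cell joins a variable segment (Igkv) to a joining segment (Igkj), and splicing then connects the joined exon to the constant exon, Igkc. The variable segment encodes most of the part of the chain that meets antigen, and each B cell and its descendants keep a single productive choice. Plasma cells, which secrete antibody, carry far more of this RNA than resting B cells, and a clone that has expanded can fill a tissue with reads of its own segment. The spread of reads over segments is for this reason read as a picture of which B-lineage clones are present, whereas the sum over segments tracks how much kappa RNA a tissue holds.

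The segments lie on chromosome 6 (GRCm38, GENCODE M21), between 22.3 and 3170 kb before the start of Igkc (chr6:70726435-70726966, plus strand), on both strands. All 103 were found in that annotation, 97 as functional genes and 6 as pseudogenes. A further 57 Igkv genes of the annotation had no row under their symbol in the count table. The 3′ end of the variable exon forms the start of the third complementarity-determining region (CDR3), the loop that joining completes. The last 48 bases of that exon are shown, 5′ to 3′ on the coding strand, for 9 segments to which the results return: 6 of the 7 in which every arcA liver was below every GFP liver, those with the most reads, and 1 whose reads came almost wholly from a single liver. Capitals mark the 26 bases from the last in-frame TGT or TGC codon, the conserved cysteine before CDR3, to the end of the exon.
Igkv12-44 (chr6:69814631-69814678, minus strand): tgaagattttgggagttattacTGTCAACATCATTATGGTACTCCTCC
Igkv12-46 (chr6:69764523-69764570, minus strand): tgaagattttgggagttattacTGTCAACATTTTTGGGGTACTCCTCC
Igkv6-23 (chr6:70260409-70260456, minus strand): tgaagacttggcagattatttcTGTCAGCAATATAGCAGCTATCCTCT
Igkv6-25 (chr6:70215910-70215957, plus strand): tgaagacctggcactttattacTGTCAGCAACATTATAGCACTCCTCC
Igkv8-24 (chr6:70216858-70216905, minus strand): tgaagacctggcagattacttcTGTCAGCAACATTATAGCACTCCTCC
Igkv3-5 (chr6:70663848-70663895, plus strand): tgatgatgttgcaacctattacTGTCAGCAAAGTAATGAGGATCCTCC
Igkv3-10 (chr6:70573183-70573230, plus strand): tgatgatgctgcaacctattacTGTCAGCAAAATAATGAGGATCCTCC
Igkv10-96 (chr6:68631963-68632010, minus strand): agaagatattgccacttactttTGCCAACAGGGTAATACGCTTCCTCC
Igkv9-120 (chr6:68050409-68050456, plus strand): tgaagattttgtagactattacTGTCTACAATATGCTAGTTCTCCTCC
The 9 segments had 8 distinct runs of capitals. Igkv6-25 and Igkv8-24 shared theirs exactly, although they belong to different subgroups, and their genes lie 0.901 kb apart on opposite strands.

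How far a read can be assigned to a segment depends on such differences. Over all 103 segments, the V exon was 65.2% to 99.0% identical to that of its nearest other segment, with a median of 94.6%. For 46 segments the nearest copy was at least 95% identical, and for 18 it shared an unbroken identical run of at least 100 bases. Igkv12-44 and Igkv12-46, the pair of subgroup 12 that returns throughout the results, differ at 16 of 298 bases of the V exon (94.6% identity), and the longest run they share is 55 bases. The nearest copy of each is Igkv12-41, which is also reported separately below. Igkv12-41 differs from Igkv12-44 at 13 bases (95.6% identity), with a shared run of 90 bases. From Igkv12-46 it differs at 15 bases, with a shared run of 53 bases. The exons of Igkv12-44 and Igkv12-46 are shown whole, with the 16 differing bases in capitals, to show where along the exon the differences lie.
Igkv12-44 (chr6:69814631-69814928, minus strand): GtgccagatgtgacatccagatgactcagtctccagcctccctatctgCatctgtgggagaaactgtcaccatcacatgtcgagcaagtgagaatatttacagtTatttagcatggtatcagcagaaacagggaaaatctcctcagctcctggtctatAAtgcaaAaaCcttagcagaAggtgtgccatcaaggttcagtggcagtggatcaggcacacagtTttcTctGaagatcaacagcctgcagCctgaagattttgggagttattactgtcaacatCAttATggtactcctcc
Igkv12-46 (chr6:69764523-69764820, minus strand): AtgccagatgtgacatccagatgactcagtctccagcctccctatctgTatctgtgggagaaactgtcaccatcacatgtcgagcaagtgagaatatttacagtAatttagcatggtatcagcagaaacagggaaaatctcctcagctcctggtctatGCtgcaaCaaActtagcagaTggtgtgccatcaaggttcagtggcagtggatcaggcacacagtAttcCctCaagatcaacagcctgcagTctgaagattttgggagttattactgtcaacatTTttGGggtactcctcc
Igkv3-5 and Igkv3-10 are closer, with 6 differences, 98.1% identity and a shared run of 159 bases. No source used here states how reads that match more than 1 segment were counted. The split of counts between near copies is therefore uncertain, whereas sums over segments do not depend on it in so far as such reads stayed within Igkv. If such reads were discarded, the sums would miss them, by an amount that was not measured.

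Libraries held 37325610 to 45874797 counts in arcA livers and 28912563 to 53520828 in GFP livers. The labelled tissue was checked on 7 hepatocyte genes, of which 0 passed the test in either direction, and their summed level was 64487 to 90444 CPM (counts per 1000000 of the library) in arcA livers and 68021 to 78411 CPM in GFP livers. Small counts were more often even than odd, 68.1% to 71.4% of the values from 1 to 20 per library and 71.4% of those of Igkv, so a count may hold both mates of a read pair. The counting intervals and floors given here cover counting error only, because reads carried no molecular identifiers and need not stand for separate molecules. They also take each count as a separate event. If counts come as mates of a pair, the intervals are too narrow and the lower bounds of the folds too high. The GFP 2, GFP 3 and GFP 5 libraries gave 11.8%, 18.1% and 19.4% of their counts to Gm42418, a gene that overlaps ribosomal RNA sequence.

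Kappa variable reads were scarce in every arcA liver and plentiful in every GFP liver. All 103 segments together had 12 to 46 counts per arcA liver, with a median of 17 and 170 counts in all, against 772 to 6314 counts per GFP liver, with a median of 1092 and 15082 in all. In CPM, scaled for library size and composition, the arcA livers had 0.379, 0.338, 1.09, 0.475, 0.326, 0.394, 0.419 and 0.648, in the order of their replicate numbers. The GFP livers had 58.5, 24, 33.3, 32.9, 27.4, 33.8, 105 and 22.1 CPM. The groups did not overlap: the lowest GFP liver, GFP 8, was 20.3-fold above the highest arcA liver, arcA 3.

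The mean summed level was 0.508 ± 0.256 CPM in arcA livers and 42.2 ± 27.9 CPM in GFP livers (SD, n = 8 each), 82.9-fold lower with arcA, or -6.37 on the log2 scale. In the arcA group, arcA 3 held 27.1% of the few Igkv counts, and in the GFP group, GFP 7 held 41.9% and GFP 1 held 17.3%. Without GFP 1 and GFP 7 the mean of the GFP group was 28.9 ± 5.13 CPM (SD, n = 6) and the summed level was 56.9-fold lower with arcA. No p-value is given for the sum, because the segments were chosen with earlier results of these data known.

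**Figure D1:**
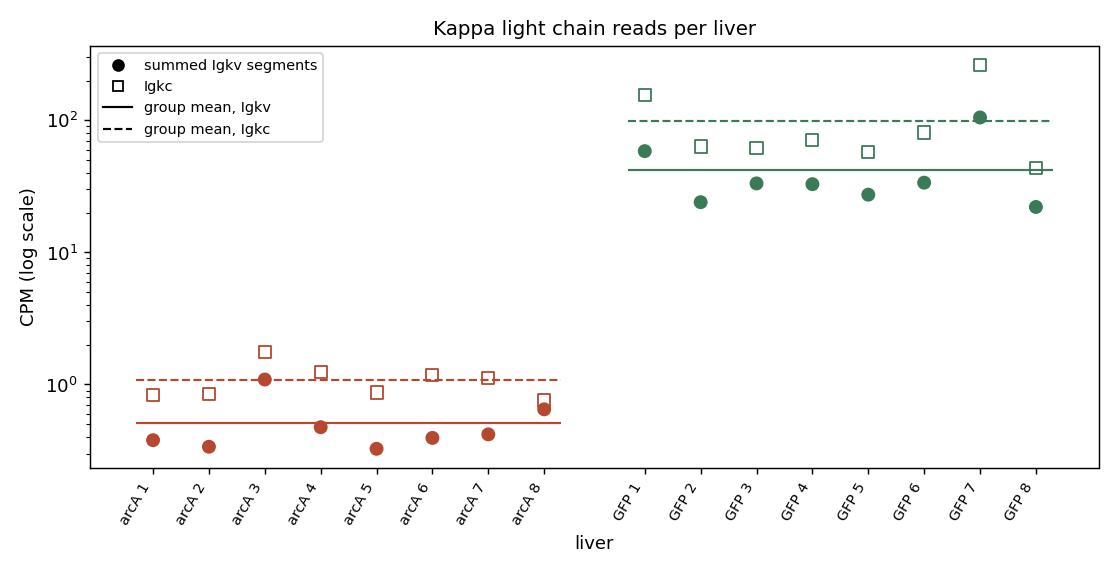
Level of kappa light chain reads in each liver, in CPM on a log scale; filled circles are the sum over the 103 Igkv segments, open squares are Igkc, and horizontal lines are group means. The arcA livers lie between 0.326 and 1.09 CPM for Igkv and the GFP livers between 22.1 and 105 CPM, with Igkc above Igkv in all 16 livers.

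The joining and constant parts of the same transcripts were lower as well. Igkc, the single kappa constant gene, had 30 to 74 counts in arcA livers and 1543 to 15738 in GFP livers, or 1.07 ± 0.329 and 99.8 ± 74.1 CPM (SD, n = 8 each). The groups were far apart. Igkc fell by 6.53 on the log2 scale (SE 0.461, edgeR quasi-likelihood test, adjusted p = 1.56e-06). The joining segments, each under 50 bases long, gathered few reads. Igkj1 had 4 counts in arcA livers and 219 in GFP livers and fell by 5.26 (SE 0.757, adjusted p = 0.000138), Igkj2 had 4 and 148 and fell by 4.74, and Igkj5 had 2 and 64 and fell by 4.47, all in the edgeR fit with no filter on low counts. Igkj4, with 3 counts in arcA livers and 34 in GFP livers, had a log2 fold change of -2.99 that did not pass (adjusted p = 0.0823). Igkj3, a joining segment known to be non-functional in mice, had 0 counts in all 16 livers.

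The number of variable reads per constant read overlapped between the groups. There were 33.3 to 85.7 Igkv counts per 100 Igkc counts in arcA livers, with a median of 39.1, and 37.4 to 54.1 in GFP livers, with a median of 43.9. The ranges overlapped, and the values above the GFP range were those of arcA 3 (62.2) and arcA 8 (85.7), which rest on 46 and 30 Igkv counts. The ratio compares genes of different length and is used only between livers.

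The other antibody variable families gave a frame for these values. The 108 heavy chain variable segments (Ighv) averaged 0.294 ± 0.0936 CPM in arcA livers and 23.2 ± 14.2 CPM in GFP livers (SD, n = 8 each), 79.0-fold lower with arcA. The 3 lambda variable segments (Iglv), the other kind of light chain, averaged 0.0888 ± 0.0863 CPM in arcA livers and 2.14 ± 2.51 CPM in GFP livers (SD, n = 8 each), 24.1-fold lower with arcA. Without GFP 5, left out after seeing the data, the GFP mean was 1.29 ± 0.796 CPM (SD, n = 7) and the level was 14.5-fold lower with arcA. Kappa made up 65.2% to 100% of the light chain variable counts in arcA livers and 77.2% to 98.9% in GFP livers, and these ranges overlapped. In the GFP group the low value was that of GFP 5, which had 228 Iglv counts, against 9 to 138 in the other GFP livers.

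Fewer segments were seen in arcA livers. With a single count taken as detection, arcA livers showed 5 to 17 of the 103 segments, with a median of 9, and GFP livers 39 to 75, with a median of 44. Every arcA liver was below every GFP liver. Over the groups, 47 segments had a count in at least 1 arcA liver and 90 in at least 1 GFP liver, and 46 had counts in both. In arcA livers 74 of the 824 values, 1 per segment and liver, were above 0, and 60 of these were 1 or 2 counts. No segment passed 8 counts in any arcA liver.

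The number of segments seen follows the number of reads, so the livers were also compared at an equal number of Igkv counts. Among 12 Igkv counts, the number in the lowest liver, 5.00 to 9.41 segments were expected in arcA livers and 6.55 to 8.50 in GFP livers, with medians of 7.26 and 7.73. At that depth the groups overlapped. A count may hold both mates of a read pair, because small counts were mostly even. If so, 12 counts from a liver with few counts tend to include both mates, and 12 from a GFP liver seldom do. That would lower the arcA numbers relative to the GFP numbers, so the comparison cannot decide whether the variety of segments differed.

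**Figure D2:**
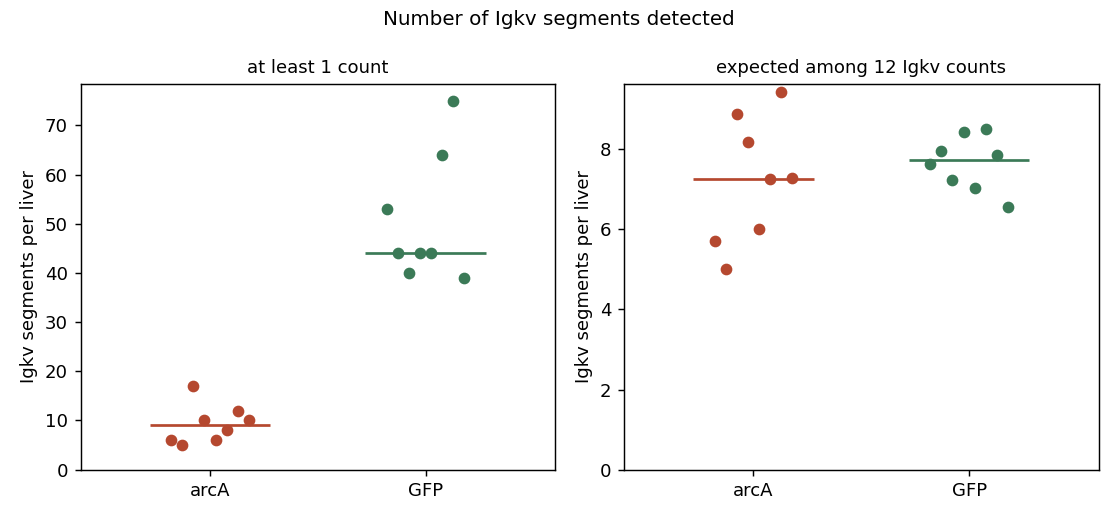
Number of Igkv segments per liver, arcA left and GFP right; each point is a liver and the bar is the group median. With all counts the groups do not overlap (5 to 17 and 39 to 75 segments), while among 12 Igkv counts per liver they do (5.00 to 9.41 and 6.55 to 8.50 expected segments).

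Of the segments, 12 had no count in any liver. These were all 6 annotated as pseudogenes and 6 annotated as functional. Of the other 91, 44 had counts in GFP livers only and 1 in arcA livers only, Igkv4-69, with 1 count in arcA 7. Igkv4-69, Igkv3-4, Igkv3-10, Igkv5-43 and Igkv6-25 are named here after their values were seen, and the other segments by a rule on level, change, leading place and subgroup.

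Each segment was then tested in a fit over all genes. With edgeR's filter on low counts, 3 of the 103 segments entered the test and all 3 were lower in arcA livers, where 6.57% of all genes tested were lower and 4.27% higher. A segment nearly absent from one group passes this filter on its counts in the other, so the values of the 3 are given and their number is not read as support. With no filter, all 91 segments with counts were tested and 38 were lower and 0 higher, while 3.84% of all 26531 genes were lower and 1.81% higher in that fit. The median log2 fold change of the 91 segments was -3.99, and that of all genes was -0.02. At an unadjusted p under 0.05, 76 of the 91 were lower and 0 higher, against 11.6% of all 26531 genes lower and 8.43% higher. A segment with counts in GFP livers only can come out lower but not higher, which bears on 44 of the 91.

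The 38 calls leaned on single livers to different degrees. Of them, 20 stayed lower in all 16 fits that left out 1 liver. DESeq2 also called 35 of the 38 and limma voom 35, and 32 were called by both. DESeq2 gave no adjusted p to 43 of the 91 segments, which it could not call. Without GFP 1 and GFP 7, 28 of the 38 stayed called, and without arcA 3 and arcA 8, 24 did.

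In 7 segments every arcA liver lay below every GFP liver in CPM, against 0.825% of all genes with a count. In 0 segments every arcA liver lay above every GFP liver in CPM, against 0.313% of all genes. Igkv12-46 had a lowest, median and highest count of 0, 0 and 2 in arcA livers and of 24, 138.5 and 492 in GFP livers. Its arcA reads came from arcA 4 and arcA 7, and its highest GFP counts were in GFP 1 and GFP 7. Igkv12-46 fell by 8.17 on the log2 scale (SE 0.854, edgeR quasi-likelihood test, adjusted p = 3.36e-05), with values of -8.76 without arcA 7 and -7.81 without GFP 1 at the extremes. Igkv12-44, whose exon is printed beside that of Igkv12-46, had 0, 0 and 4 counts in arcA livers and 26, 140 and 382 in GFP livers. All of its 4 arcA counts were in arcA 8, and each GFP liver had at least 26. Igkv12-44 fell by 8.03 (SE 0.807, adjusted p = 2.02e-05) and had a value of -10.32 without arcA 8 and of -7.69 without GFP 5. Igkv6-23, the third segment that passed the filter, had 0, 1 and 2 counts in arcA livers and 12, 76.5 and 216 in GFP livers. It was seen in 4 of the 8 arcA livers, each with 2 counts, and in all GFP livers. Igkv6-23 fell by 6.43 (SE 0.64, adjusted p = 9.92e-06).

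The other 4 segments without overlap were sparser, and their tests come from the fit with no filter. Igkv8-24 and Igkv3-10 were apart in CPM but tied in counts, so their separation rests on library size. Igkv8-24 had 2 counts in arcA 1, GFP 3 and GFP 5, and Igkv3-10 had 1 count in arcA 8, GFP 2 and GFP 3. Igkv8-24 had 2 counts over the arcA livers, both in arcA 1, and 2, 18.5 and 231 as lowest, median and highest in GFP livers. GFP 8 held 231 of its 393 GFP counts. The ratio was 204-fold lower with arcA, with an exact 95% counting interval of 56.0 to 1687, and the adjusted p was 0.00694. Its log2 fold change was -7.08, against -5.87 without GFP 8 and -8.65 without arcA 1, where the arcA group had no reads of it and the call was lost (adjusted p = 0.103). Igkv6-25, its neighbour with the same CDR3 run, had 0 counts in the arcA livers and 4 to 32 per GFP liver, with a median of 12.5. Set against a floor of 3 counts over the arcA group, it was at least 38.7-fold lower (adjusted p = 8.26e-06). Igkv3-10 had 1 count in the arcA livers, in arcA 8, and 1 to 46 in GFP livers (130 in all), a ratio of 135 with a counting interval of 23.8 to 5360 (adjusted p = 2.24e-05). Its log2 fold change was -5.93, against -6.90 without arcA 8 and -5.59 without GFP 8. Igkv3-4 had 0 counts in the arcA livers and 2 to 6 in each GFP liver, at least 8.98-fold lower (adjusted p = 0.00567). All 4 of these segments had reads in each of the 8 GFP livers.

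Many of the larger segments had most of their reads in 1 GFP liver. The 29 segments with at least 100 counts over the GFP livers were picked on GFP counts alone, which favours a lower call, so their number called is not read as support. In the edgeR fit with no filter 24 of them were called lower and 5 were not, where 6.37% of all genes with that many GFP counts were lower and 3.28% higher. All 5 that were not called had more than 50% of their GFP counts in a single liver, as did 12 of the 24 that were called. Igkv9-120 had 0 counts in the arcA livers and 1027 in the GFP livers, at least 355-fold lower with arcA, and was not called by edgeR (adjusted p = 0.174). GFP 7 held 939 of these counts, and 3 GFP livers had none. Without GFP 7, left out after seeing the data, 88 GFP counts remained and Igkv9-120 was at least 37.5-fold lower with arcA. Igkv12-41 had 0 counts in the arcA livers and 422 in the GFP livers, 286 of them in GFP 1, at least 146-fold lower with arcA. It was not called by edgeR (adjusted p = 0.099) but was without GFP 1 (adjusted p = 0.0292), where 136 GFP counts remained and it was at least 54.7-fold lower. Igkv4-72 had 2 counts in the arcA livers and 379 in the GFP livers, 340 of them in GFP 7 (adjusted p = 0.0503). It was called when GFP 3, GFP 4, GFP 5, GFP 7 or GFP 8 was left out (adjusted p down to 0.0409). Igkv6-13, with 6 counts in the arcA livers and 256 in the GFP livers, 175 of them in GFP 2, had an adjusted p of 0.0581 and was called without GFP 4, GFP 5 or GFP 8 (adjusted p down to 0.0414). Igkv5-43 had 0 and 143 counts, 80 of them in GFP 7 and 46 in GFP 1 (adjusted p = 0.0931).

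Other tests differed in which of these 5 segments they called lower. With DESeq2 the adjusted p was 8.14e-07 for Igkv12-41, 0.00232 for Igkv5-43, 0.0362 for Igkv6-13, 0.0395 for Igkv9-120 and 0.095 for Igkv4-72. With limma voom it was 0.000245 for Igkv12-41 and 0.00255 for Igkv5-43, and the other 3 did not pass (0.056 for Igkv9-120, 0.0813 for Igkv6-13 and 0.142 for Igkv4-72). With the replicate number as a block, edgeR called Igkv9-120 (3.91e-09), Igkv12-41 (7.86e-08), Igkv5-43 (0.000149) and Igkv4-72 (0.0243) but not Igkv6-13 (0.265). Igkv9-120, Igkv12-41 and Igkv5-43 had 0 counts in the arcA livers, so the block terms can fit their GFP counts exactly. No spread between GFP livers is then left to test against, and the SE of Igkv9-120 was 0.66, against 3.33 with no block. The block p-values of these segments are therefore not read as support.

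Igkv10-96 had the most reads of any segment, with 11 counts in the arcA livers and 2302 in the GFP livers. Its arcA counts were 8 in arcA 3, 2 in arcA 5 and 1 in arcA 8. In the GFP livers they were 1554 in GFP 7, 503 in GFP 1, 185 in GFP 4 and 4 to 18 in the others, so the groups overlapped. Igkv10-96 fell by 7.25 (SE 1.54, adjusted p = 0.0114), and its adjusted p was at most 0.027 in the 16 fits that left out 1 liver. Its value was -8.68 without arcA 3 and -6.14 without GFP 7. Igkv3-5 had 3 counts in the arcA livers and 1039 in the GFP livers, a ratio of 359 (exact counting interval 122 to 1743), with 580 in GFP 7, 208 in GFP 8 and 0 in GFP 3. It fell by 7.78 (SE 1.39, adjusted p = 0.0037), with values of -8.70 without arcA 5 and -7.06 without GFP 7.

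Among the remaining segments of high mean level, several had all of their few arcA reads in 1 liver. Igkv6-32, Igkv3-12, Igkv3-7 and Igkv5-39 each had 2 counts in all arcA livers together and 401, 301, 267 and 313 counts in the GFP livers. In each case a single arcA liver held both counts, arcA 2 for Igkv6-32 and Igkv3-12 and arcA 3 for Igkv3-7 and Igkv5-39. Their log2 fold changes were -7.04, -6.96, -6.72 and -6.68, and the call of each was lost when that arcA liver was left out (adjusted p up to 0.142). The arcA group then had 0 counts of the segment, and the fitted values were further from 0, at -8.63, -8.55, -8.28 and -8.25. Igkv3-2 and Igkv8-30 had 7 and 6 counts in the arcA livers and 342 and 324 in the GFP livers, had log2 fold changes of -5.31 and -5.46, and stayed called in all 16 of those fits. The value of Igkv8-30 was -6.52 without arcA 8 and -4.62 without GFP 6, and that of Igkv3-2 was -5.83 without arcA 3 and -4.96 without GFP 2. Igkv8-21 and Igkv3-1, each with 2 counts in arcA 7, had 194 and 149 counts in the GFP livers and log2 fold changes of -5.93 and -5.72, and Igkv8-21 lost its call without arcA 7 (adjusted p = 0.0945), at a fitted value of -7.49 on 0 arcA counts. Igkv3-1 stayed called, at -7.28 without arcA 7 and -5.07 without GFP 4.

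The segments with the most counts within an arcA liver rested on 2 to 8 counts. Igkv1-135 had 10 counts in the arcA livers, 4 of them in arcA 1, and 202 in the GFP livers, and fell by 4.04 (adjusted p = 0.0287). Igkv6-15, which tied with it in arcA 1, had 5 counts in the arcA livers and 243 in the GFP livers and fell by 5.26 (adjusted p = 0.0357). Igkv15-103 led in arcA 8 with 6 counts, had 8 in the arcA livers and 143 in the GFP livers, and fell by 3.99 (adjusted p = 0.00489), with a value of -5.39 without arcA 8. Igkv4-91 led in arcA 4 with 4 counts, all of its arcA reads, against 64 in the GFP livers, and fell by 3.64 (adjusted p = 0.0257). The call of Igkv1-135 was lost without arcA 2, 4, 5, 6 or 7 or GFP 6 or 7, that of Igkv6-15 without any 1 of arcA 2 to 8 or GFP 3 or 7, and that of Igkv4-91 without arcA 1, 2, 5, 6 or 7 or GFP 7, with adjusted p up to 0.058, 0.0703 and 0.109. In those fits the log2 fold changes were -4.19 to -3.60 for Igkv1-135, -5.36 to -4.42 for Igkv6-15 and -3.51 to -3.01 for Igkv4-91. Igkv17-127 led in arcA 2 with 4 counts, had 7 in the arcA livers and 20 in the GFP livers, and had a log2 fold change of -1.39 that did not pass (adjusted p = 0.482). Igkv14-111, which led in arcA 6 with 4 counts, had 6 and 80 counts and a log2 fold change of -3.72 (adjusted p = 0.0761), and it was called without arcA 6, GFP 1 or GFP 2 (adjusted p down to 0.0401). Igkv10-96 led in arcA 3, with 8 of 46 counts (17.4%, exact 95% interval 7.82% to 31.4%). In arcA 5 and arcA 7, 6 segments each tied at 2 counts, among them Igkv6-17, which had 3 and 153 counts over the groups, and Igkv8-28, which had 4 and 85.

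In the GFP livers 7 different segments took the first place. The leader was Igkv10-96 in GFP 1 (19.2% of Igkv counts) and GFP 7 (24.6%), Igkv6-13 in GFP 2 (20.1%), Igkv3-12 in GFP 3 (21.1%) and Igkv12-46 in GFP 4 (16.6%). It was Igkv12-44 in GFP 5 (37.6%, exact 95% interval 34.1% to 41.1%), Igkv6-23 in GFP 6 (14%) and Igkv8-24 in GFP 8 (28%). Each GFP liver thus had its own leading segment, apart from the pair that shared Igkv10-96. The 5 leading segments held 51.1% to 73.2% of the Igkv counts of a GFP liver, and 2 to 5 segments were enough for 50% of them. Summed over the GFP livers, the 3 largest segments held 33.5% and the 10 largest 62.9%.

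The compositions of the GFP livers were unlike each other. The share of Igkv counts that a pair of GFP livers had in common, summed over segments, was 19.9% to 56.5% over the 28 pairs, with a median of 33.4%. The pair with the least in common was GFP 2 and GFP 8, and the pair with the most was GFP 1 and GFP 4. The effective number of segments, the inverse of the summed squared shares, was 5.87 in GFP 5 at the lowest and 13.5 in GFP 6 at the highest. With 12 to 46 counts per liver, the arcA compositions were not compared pair by pair.

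**Figure D3:**
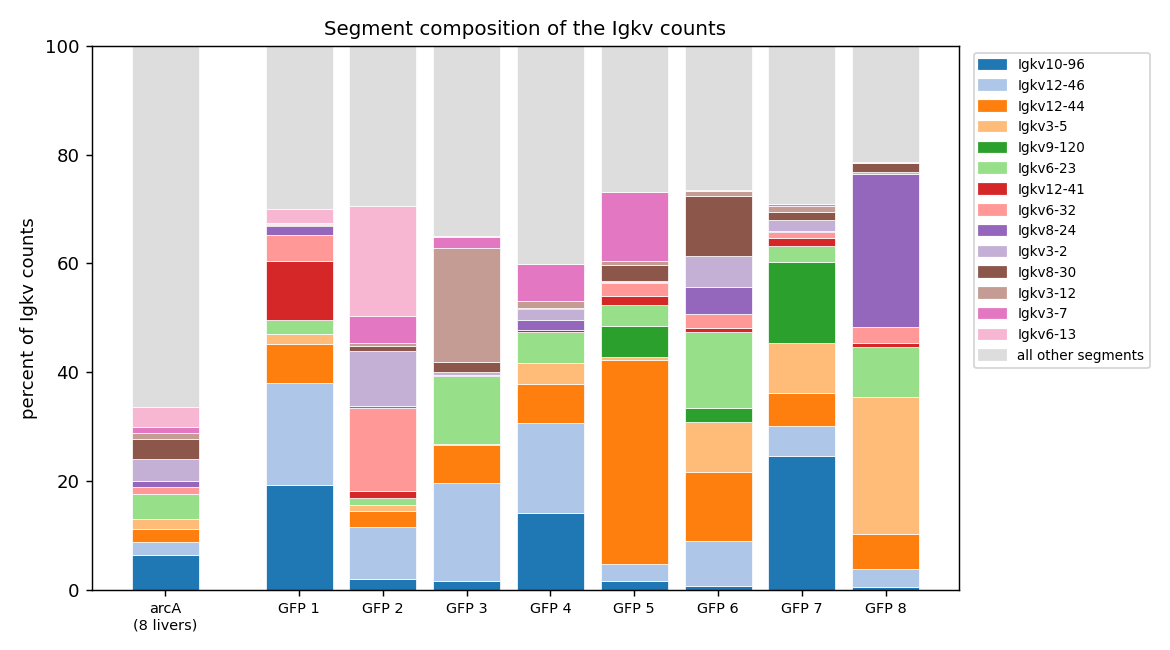
Share of the Igkv counts, in percent, for the 8 arcA livers together (170 counts) and for each GFP liver (772 to 6314 counts). Bars show 14 segments, taken from the leading segments of each GFP liver, and all other segments together. They are not the 14 with the most GFP counts. Igkv4-72 (379 GFP counts) is among the others, while Igkv6-13 (256 GFP counts) is drawn. The GFP bars have different leading segments, from 14% for Igkv6-23 in GFP 6 to 37.6% for Igkv12-44 in GFP 5. The other segments fill the larger part of the arcA bar, which the choice of segments by GFP counts favours.

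Grouped by subgroup, the number before the hyphen, which marks sequence families, the 103 segments fall into 19 classes. Counts were found for 14 of these in arcA livers and for 18 in GFP livers. Subgroup 12 had the most counts in GFP livers, whereas subgroups 6 and 4 had the most in arcA livers (25 and 24 counts). Subgroup 12 made up 6.47% of the pooled arcA counts (11 of 170, exact 95% interval 3.27% to 11.3%) and 21.6% of the pooled GFP counts (10.8% to 42.6% per liver). The summed level of subgroup 12 was at most 0.0864 CPM in an arcA liver and at least 2.38 CPM in a GFP liver. Of its 6 segments, Igkv12-46 and Igkv12-44 are described above, Igkv12-98 had 1 count in the arcA livers and 70 in the GFP livers and fell by 4.91 (adjusted p = 0.00489, and 0.0779 at a fitted -5.91 without arcA 1, which held its arcA count). Igkv12-41, described above, was called by DESeq2 and limma voom but not by edgeR with no block. Its smallest members were Igkv12-38, with 0 and 5 counts, and Igkv12-89, with 2 and 3 counts, which did not pass (adjusted p = 0.146 and 0.804).

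Subgroup 1 was the other way round in share. It made up 9.41% of the arcA counts (exact interval 5.48% to 14.8%) and 2.15% of the GFP counts, with 0.995% to 4.95% in single GFP livers. In absolute level it was lower in arcA livers, at a mean of 0.049 CPM against 0.908 CPM in GFP livers, and its ranges did not overlap. Subgroups 10, 3 and 6 held 7.65%, 10.0% and 14.7% of the arcA counts and 16.7%, 15.1% and 13.8% of the GFP counts. The share of subgroup 10 in the GFP group rested on GFP 7, without which it was 9.33%. Subgroup 9, which holds Igkv9-120, had 2.35% of the arcA counts and 7.09% of the GFP counts, or 1.16% of the GFP counts without GFP 7. Subgroup 11, with the segments Igkv11-106 and Igkv11-125, had 0 of 170 counts in arcA livers and 0 of 15082 in GFP livers, which allows shares of up to 1.76% and 0.0199%. The shares were not tested, and 170 arcA counts from 8 livers, 46 of them from arcA 3, leave them imprecise.

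Reads came from the whole length of the locus in both groups. The 34 segments farthest from Igkc held 42.4% of the arcA counts and 30.3% of the GFP counts, the 34 in the middle held 21.2% and 27.7%, and the 35 nearest to Igkc held 36.5% and 42.0%. In the GFP livers the nearest 35 ranged from 30.6% to 79.6%, and the highest share was that of GFP 8, whose leading segments Igkv8-24 and Igkv3-5 both lie there. Of the 38 segments called lower, 8 were in the far part, 10 in the middle and 20 near Igkc. Segments on the plus strand point the same way as the joining segments and join by deletion, and those on the minus strand join by inversion. The 39 segments on the plus strand held 44.1% of the arcA counts (exact interval 36.5% to 51.9%) and 30.7% of the GFP counts. Single arcA livers ranged from 34.8% to 66.7%, and single GFP livers from 12% in GFP 1 to 39.4% in GFP 3, so the groups overlapped.

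**Figure D4:**
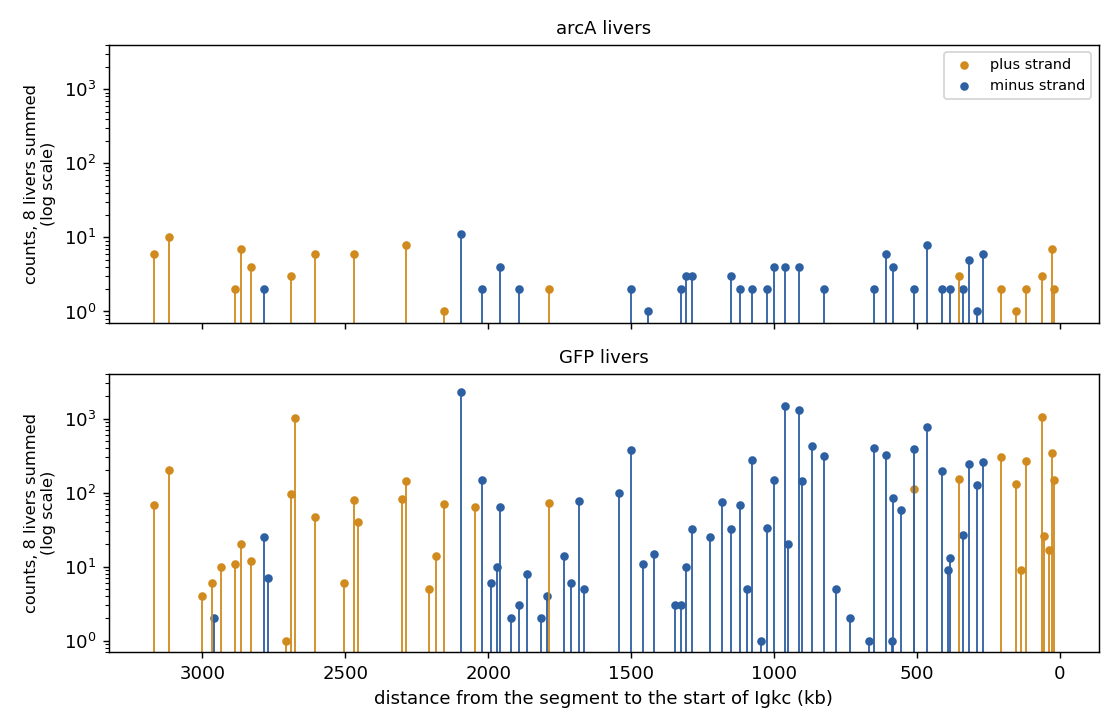
Counts of each Igkv segment summed over 8 livers (log scale), against its distance to the start of Igkc in kb, arcA above and GFP below; colours give the strand, and segments with 0 counts in a group are not drawn. No arcA segment reaches more than 11 counts, while GFP segments reach 2302, and in both groups counts are spread from 22.3 to 3170 kb.

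Some genes of plasma cells and B cells were lower in arcA livers as well, and their part in the result was not tested. Of 16 plasma cell genes, 11 passed the filter, of which 4 fell and 1 rose, with a median log2 fold change of -0.08, where 6.57% of all genes tested fell and 4.27% rose. With no filter 7 of the 16 fell and 1 rose, against 3.84% and 1.81% of all genes. Jchain, which links units of IgA and IgM, had 2 to 21 counts in arcA livers and 216 to 1904 in GFP livers and fell by 5.66 (SE 0.445, adjusted p = 2.92e-06), and Mzb1, a chaperone of antibody assembly in the endoplasmic reticulum, fell by 3.17. Cd38 and Fkbp11 fell by 0.45 and 0.44, and Sdc1, which hepatocytes also express, rose by 0.37. The list's summed level was set by genes that the liver itself expresses and overlapped, at 668 to 929 CPM in arcA livers and 659 to 741 CPM in GFP livers. Of 17 B cell genes in the table, 5 passed the filter and all 5 fell, and with no filter 6 of the 17 fell and 0 rose, beside the same shares of all genes. Those that passed the filter included the B cell receptor genes Cd79b (-1.46) and Ighm (-1.33) and the inhibitory receptor gene Cd22 (-1.76). The summed level of the B cell list was 3.05 to 5.64 CPM in arcA livers and 6.56 to 14 CPM in GFP livers, which did not overlap, and no listed B cell gene was at 0 over the arcA group. The falls of the B cell genes that passed the test were smaller than those of Igkc or of the called segments. Jchain, of the plasma cell list, fell by more than some called segments, such as Igkv4-91 (-3.64). The segments were called on their falls, and the differences were not tested.

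Of the 7 T cell genes, 5 passed the filter and all 5 fell, against 6.57% of all genes tested, and with no filter all 7 fell, against 3.84%. They had a summed level of 0.45 to 1.68 CPM in arcA livers and 5.12 to 11.1 CPM in GFP livers. Genes that act before a kappa chain exists had few reads or did not pass the test. Rag1, a subunit of the recombinase that cuts the segments, had 0 counts in the arcA livers and 3 in the GFP livers, and Rag2, its partner, had 0 in both. Dntt, whose product adds bases at the joins, did not pass, at 0.04 on the log2 scale (SE 0.291, adjusted p = 0.953). Pou2f2, a transcription factor of the octamer family, which acts on immunoglobulin promoters, fell by 0.79 (SE 0.201, adjusted p = 0.015), and its coactivator gene Pou2af1, with 36 and 109 counts, had a log2 fold change of -1.47 in the fit with no filter (adjusted p = 0.0514).

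Across the 8 GFP livers, 8 genes outside the immunoglobulin loci ranked the livers most like the summed Igkv level. Jchain, Dhrs7b, Phc2 and Gm20604 had a Spearman rho of 0.976, and Maged1, Cep170, Fam110a and Gucy1b1 of 0.952, over 8 livers that include the high GFP 1 and GFP 7. Of these 8 genes, Jchain differed between arcA and GFP livers, and the other 7 had log2 fold changes between -0.19 and 0.18 that did not pass (adjusted p from 0.163 to 0.809). The order is a description over 8 livers, chosen among all genes tested.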

How the data were processed

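Liver RNA of 8 arcA and 8 GFP mice was isolated with Trizol and primed with oligo-dT, per the labels' protocols. The authors deposited a single table of unnormalized counts, with gene symbols as rows and libraries as columns. Per the submitters' processing notes, the tools were featureCounts 1.4.6-p5 (Subread), STAR 2.5.1a and bcl2fastq, with the mouse build GRCm38. No source used here states the annotation release, the strand setting or how read pairs and reads matching several genes were counted. Of 40757 deposited lines of counts, 348 exact duplicates were removed, none of them Igkv, and counts of repeated symbols were summed. Coordinates and V exon sequences were taken by symbol from GENCODE M21.

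Counts were tested with edgeR 4.0.16 (R 4.3.3, quasi-likelihood F test, TMM scaling, group as the only term) on 14476 genes kept by filterByExpr, and again on all 26531 genes with at least 1 count, because the filter left 3 Igkv segments. P-values were adjusted by Benjamini-Hochberg over all genes tested, and 0.05 was the threshold. A negative log2 fold change means lower in arcA livers. The SE given with an edgeR value was derived as the absolute log2 fold change divided by the square root of the F statistic. CPM used TMM-scaled library sizes, with a prior count of 2 for log2 CPM. A segment with 0 arcA counts was set against a floor of 3 counts over the group, and ratios on 1 to 3 arcA counts carry exact binomial 95% intervals. The code was tested on simulated counts. Sums, shares and numbers of segments were described without a test.

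The segments and gene lists were chosen with earlier results of these data known. Named segments were the 16 of highest mean CPM, up to 6 of the largest changes in each direction past the threshold, the leader of each library, those higher in arcA with at least 10 counts (there were none), and the members of the largest and the smallest subgroup; of each gene list, up to 4 genes of smallest p were named. Alternatives were RLE, upper-quartile and library-size scaling, a filter of 1 CPM in 8 libraries, DESeq2 1.42.0, limma 3.58.1 voom, a replicate block, halved counts, duplicate lines kept, and libraries left out singly or in sets. The fits that combine no filter with another alternative, those without GFP 1 and GFP 7, the comparison at 12 counts, and the level of Iglv and the bounds of Igkv9-120 and Igkv12-41 without 1 GFP library were added after seeing the data.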

Additional observations from a re-analysis of the deposited data

Results flagged for a closer look

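Of 48 groups of 8 livers tested for a single liver set far apart from the other 7, 15 had one. The rule behind this count is set to pick about 1 in 20 groups of independent, normally distributed values. These groups share livers and hold sparse counts, so the share that chance gives here was not measured. Of single segments, only those named by rule and Igkv4-69, Igkv3-4, Igkv3-10 and Igkv6-25 were considered. Groups whose highest liver had under 10 counts of a segment were not tested. Of the 15, 5 were values of GFP 7 and 11 were single segments, each in the GFP group.

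The summed Igkv level of arcA 3 was 1.09 CPM, with the next arcA liver at 0.648 CPM, and that of GFP 7 was 105 CPM, with the next GFP liver at 58.5 CPM. The summed Iglv level of GFP 5 was 8.09 CPM, with the next at 2.41 CPM. In GFP 1, 12% of the Igkv counts fell on the plus strand, and the next lowest GFP liver had 28.2%.

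In GFP 7 the levels set apart were those of Igkv10-96 (25.9 CPM, next 11.3 CPM), Igkv9-120 (15.7 CPM, next 1.56 CPM), Igkv4-72 (5.67 CPM, next 0.739 CPM) and Igkv6-17 (1.48 CPM, next 0.592 CPM). In GFP 2 they were those of Igkv6-13 (4.84 CPM, next 1.5 CPM) and Igkv8-28 (1.13 CPM, next 0.319 CPM). The others were Igkv12-41 in GFP 1 (6.41 CPM, next 1.55 CPM), Igkv3-12 in GFP 3 (7.03 CPM, next 1.27 CPM), Igkv3-1 in GFP 4 (1.70 CPM, next 0.802 CPM), Igkv8-30 in GFP 6 (3.73 CPM, next 1.52 CPM) and Igkv8-24 in GFP 8 (6.19 CPM, next 1.62 CPM). Among the 8 GFP livers, GFP 5 was the only one with none of these 11 segments set apart. That holds for the segments considered only. Igkv1-99, which was not considered, had 14 counts in GFP 5 and 0 in every other GFP liver.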

How the results depend on the processing

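The number of segments called lower rests on the filter. It was 3 with filterByExpr, 38 with no filter and 0 with a filter of 1 CPM in 8 libraries, which tested no Igkv segment. It was 5 without GFP 2, GFP 3 and GFP 5 and 5 without arcA 3 and arcA 8. In the fits without 1 library it was 3 to 4, and 27 to 40 with no filter. With no filter it was 25 without arcA 3 and arcA 8, and 30 to 40 in the other alternatives that kept all or nearly all libraries, among them 40 with DESeq2, 39 with limma voom and 37 with counts halved. The DESeq2 fit gave no adjusted p to 43 segments. No alternative called a segment higher in arcA livers, by edgeR, DESeq2 or limma voom. Same-numbered arcA and GFP libraries deviated from their group means with correlations of -0.05 to 0.16, and only replicate 2 correlated best with its own number, so the numbers were not treated as pairs. With the replicate block, 3 segments were called lower with the filter and 40 without it, 31 of them among the 38. Segments with 0 arcA counts leave the block fit no spread between GFP livers, so the 40 is not read as support. The log2 ratio of the summed level was -6.63 to -6.03 without 1 library, and -6.43 with library size alone. With at least 3 counts as detection, the median number of segments was 1 in arcA and 32 in GFP livers; with at least 10 counts it was 0 and 19.5, and among 12 Igkv counts 7.26 and 7.73. The log2 fold change of Igkv12-89, on 2 and 3 counts, was -0.59, ranged from -2.15 to 0.46 without 1 library, and turned to 0.25 without GFP 2, GFP 3 and GFP 5 and to 0.46 without GFP replicate 5. The calls of single segments that a left-out library ended or gave stand beside their values. The cause of these changes was not tested. Few arcA counts limit every fold: a segment with under 3 arcA counts has no precise ratio.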
